A study of Homo sapiens with 4 samples.

Results

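The nuclear genes for mitochondrial ribosomal proteins were examined in cells labelled HT1376, an established human bladder cancer cell line. The members were the protein coding genes with an MRPL or MRPS symbol followed by a number. They were 78 of the 61860 genes in the count table, 49 with an MRPL symbol (large subunit by name) and 29 with an MRPS symbol (small subunit by name). Of 164 genes whose symbol matched the pattern, 86 were not protein coding and were left out. One group of cells received 1 nM enfortumab vedotin (EV) for 48 h, and the other a control labelled WFI, with 2 samples in each. EV is an antibody-drug conjugate that binds nectin-4 on the cell surface and carries monomethyl auristatin E, which disrupts microtubules. All 4 samples are labelled HT1376. Nothing in the labels describes the 2 replicates of a group as independent cultures, so the p-values reflect sample-to-sample spread that could be technical.

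The mitochondrial ribosome translates the messages of the mitochondrial genome, which encode core subunits of the respiratory chain and the ATP synthase. Its protein subunits are all encoded in the nucleus, made by cytosolic ribosomes, imported into mitochondria and assembled there with rRNA from the mitochondrial genome. Some have counterparts in bacterial ribosomes and others are found only in mitochondria. The genome's own 37 genes were listed with 0 counts in all 4 samples, so its rRNAs and messages are not described.

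The libraries held 19368791 and 20727175 counts in EV and 19447577 and 19669037 in WFI. Levels are given as CPM, that is, counts divided by the TMM-adjusted size of the library. A rise or fall is therefore relative to the rest of the library, and fewer cells of a type cannot be told apart from less RNA per cell. Of 15 bladder epithelial markers, KRT7, KRT8 and KRT18 exceeded 1 CPM in all 4 samples, KRT20 was at 0 in all, KRT5, TP63 and UPK1B were at 0 in both WFI samples, and CDH1 had 16 counts in EV against 1 in WFI. EPCAM was at 1.43 and 0.775 CPM in EV against 0.145 and 0.287 CPM in WFI, and GATA3 at 10.1 and 10.1 CPM in EV against 0.775 and 0.908 CPM in WFI. Apart from KRT7, KRT8 and KRT18, every marker of the list was at or below 1.39 CPM in WFI, so most of the list goes against an epithelial label there. In EV, CDH1, KRT19, KRT20, UPK1A, UPK1B, UPK2, UPK3A and NECTIN4 were also low, at or below 1.08 CPM. KRT5 was at 5.33 and 6.92 CPM in EV and TP63 at 1.65 and 1.39 CPM. The identity of the cells was not tested further. The 15 summed to 3374 and 3412 CPM in EV against 1567 and 1550 CPM in WFI. The 8 mesenchymal markers summed to 1995 and 1948 CPM in EV against 1742 and 1734 CPM in WFI. Most of this was VIM, at 1981 and 1937 CPM in EV against 1729 and 1720 CPM in WFI. COL1A1 (267 counts in EV against 368 in WFI), PDGFRA (58 against 71) and PDGFRB (67 against 111) had fewer counts in EV. The CPM of COL1A1 and PDGFRA overlapped between the groups. COL1A2, COL3A1, DCN and LUM had more counts in EV, at or below 1.08 CPM in every sample. The 6 leukocyte markers, with none at 0 in all samples and CD14 the most abundant, summed to 7.7 and 8.93 CPM in EV against 1.31 and 2.15 CPM in WFI, and the 3 endothelial markers to 4.67 and 5.68 CPM in EV against 1.69 and 2.2 CPM in WFI. NECTIN4, the target of the antibody, had 15 counts in EV and 57 in WFI. The part of these marker shifts in the results was not tested.

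More mitochondrial ribosomal protein genes rose than fell in EV, and most log2 fold changes were below 0.5 in size. Of 75 members tested, 34 rose (45.3%), 5 fell (6.67%) and 36 were not called by edgeR's quasi-likelihood test at a Benjamini-Hochberg adjusted p below 0.05. Across all 17465 genes tested, 34.5% were called higher and 31.5% lower, or 66% in either direction. The median log2 fold change of the members was 0.24, with quartiles of -0.05 and 0.60, against a median of 0.02 over all genes tested. An absolute log2 fold change of 1 or more was seen in 2 members (2.67%), against 34% of all genes tested. A value below 0.5 was seen in 48 members (64%), against 40% of all genes. Both EV samples lay above both WFI samples in 45 tested members, both lay below in 16, and the groups overlapped in 14. Over all genes tested, the groups did not overlap in 82.8%, with EV above WFI in 42.1% and below it in 40.7%. The balance of calls changed with a joint correction for transcript length and GC content, whose separate parts were not tested. After gene-wise offsets fitted to transcript length and GC content, 25 members were called higher and 15 lower with edgeR, and their median was 0.11, while 34.4% of all genes tested were called higher and 29.4% lower (63.7% in either direction).

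The counts also varied with other choices. Members called higher numbered 33 with DESeq2 (31.4% of all genes), 37 with RLE scaling (35.2%), 39 with upper quartile scaling (36.5%), 31 without a count filter (16.6%), 39 with a filter of 50 counts (37.7%) and 36 with a replicate block (34.1%). Members called lower numbered 3 with DESeq2 (26.8% of all genes), 4 with RLE scaling (30.7%), 4 with upper quartile scaling (29.3%), 8 without a count filter (15.5%), 4 with a filter of 50 counts (36.6%) and 5 with a replicate block (31.9%). Leaving out a sample leaves 1 sample in its group, which is then assumed to vary like the other group. It gave 34 higher and 5 lower without EV replicate 1 (31.6% and 30.3% of all genes), 36 and 5 without EV replicate 2 (31.8% and 30.8%), 27 and 3 without WFI replicate 1 (25.1% and 23.5%), and 30 and 3 without WFI replicate 2 (25.1% and 23.7%). With a log2 fold change of at least 1 added, MRPL48 was the 1 member called higher (17.5% of all genes) and MRPS5 the 1 called lower (13.3%).

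**Figure D1:**
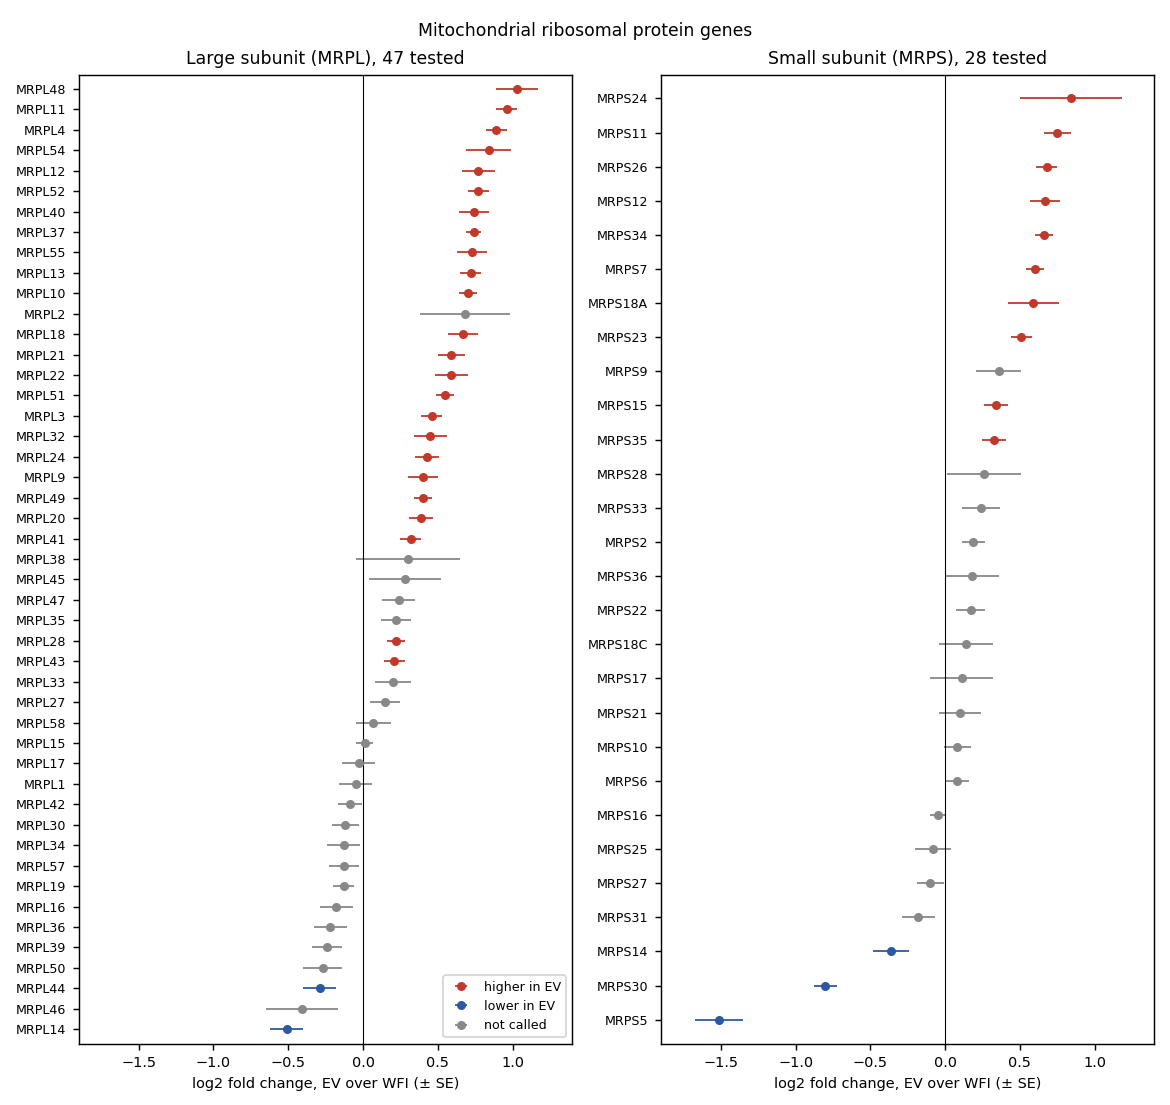
Log2 fold change of each tested member, EV over WFI, with its standard error, by subunit name and coloured by the call of edgeR's quasi-likelihood test. Values run from -1.51 (MRPS5) to 1.03 (MRPL48), and most of the called members lie on the higher side.

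Summed over all 78 members, the level was 3265 and 3191 CPM in EV against 2554 and 2637 CPM in WFI, a ratio of 1.24. The MRPL genes summed to 2207 and 2124 CPM in EV against 1644 and 1708 CPM in WFI, a ratio of 1.29. The MRPS genes summed to 1058 and 1067 CPM in EV against 911 and 930 CPM in WFI, a ratio of 1.15. Both EV samples lay above both WFI samples for each sum. The ratio of summed MRPL to summed MRPS levels was 2.09 and 1.99 in EV against 1.8 and 1.84 in WFI, again without overlap. These sums are a description with no test, and they depend on the TMM factors, 0.942 and 0.937 in EV against 1.064 and 1.065 in WFI. Before that adjustment, the MRPS genes held 0.0994% and 0.0996% of counts in EV against 0.0967% and 0.0989% in WFI. The MRPL genes held 0.207% and 0.198% in EV against 0.175% and 0.182% in WFI. All members together held 0.307% and 0.298% in EV against 0.271% and 0.281% in WFI. Per transcript length, the members' mean levels over the 4 samples ran from 2.57 TPM (counts divided by transcript length and scaled to a common sum) for MRPL38 to 199 TPM for MRPL43, with a median of 59.3 TPM. MRPL38 overlaps an unnamed protein coding gene on its own strand, so its reads may be shared.

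Promoter windows from RefSeq (build GRCh38.p14), from 250 bases before to 50 bases after the gene's start, were found for 69 of the 78 members. They were searched on both strands for letters known from binding sites of factors linked to nuclear genes of mitochondria and ribosomes: GCGCA and GCGC with any 1 base between them for NRF1, CCGGAAGT for ETS factors such as GABPA, AAGATGGC for YY1, and the E-box CACGTG bound by MYC. The 4 windows printed here show NRF1, ETS or YY1 letters in capitals. They were chosen to set YY1 and ETS letters in members that rose beside YY1 or NRF1 letters in members that fell. The windows lie at chr14:22829637-22829936 on the plus strand, chr12:6493213-6493512 on the minus strand, chr5:44808697-44808996 on the plus strand and chr6:44127259-44127558 on the minus strand, each written 5′ to 3′ along its gene. The first pair rose in EV and the second pair fell.
MRPL52: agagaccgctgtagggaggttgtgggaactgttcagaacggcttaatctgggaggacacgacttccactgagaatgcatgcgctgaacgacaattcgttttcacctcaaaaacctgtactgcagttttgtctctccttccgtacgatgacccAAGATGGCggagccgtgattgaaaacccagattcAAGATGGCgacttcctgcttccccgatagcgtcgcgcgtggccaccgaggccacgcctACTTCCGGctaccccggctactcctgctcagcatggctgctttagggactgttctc
MRPL51: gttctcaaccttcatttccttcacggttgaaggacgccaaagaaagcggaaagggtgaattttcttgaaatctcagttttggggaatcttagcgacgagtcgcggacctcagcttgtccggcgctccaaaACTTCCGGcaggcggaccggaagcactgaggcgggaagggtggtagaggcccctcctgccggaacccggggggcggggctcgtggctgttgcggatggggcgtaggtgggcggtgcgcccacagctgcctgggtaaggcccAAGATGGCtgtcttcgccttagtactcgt
MRPS30: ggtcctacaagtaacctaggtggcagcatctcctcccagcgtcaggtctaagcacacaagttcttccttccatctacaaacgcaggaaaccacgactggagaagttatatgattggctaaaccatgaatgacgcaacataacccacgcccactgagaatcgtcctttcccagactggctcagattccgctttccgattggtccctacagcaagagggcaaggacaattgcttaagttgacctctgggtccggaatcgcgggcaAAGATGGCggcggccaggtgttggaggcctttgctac
MRPL14: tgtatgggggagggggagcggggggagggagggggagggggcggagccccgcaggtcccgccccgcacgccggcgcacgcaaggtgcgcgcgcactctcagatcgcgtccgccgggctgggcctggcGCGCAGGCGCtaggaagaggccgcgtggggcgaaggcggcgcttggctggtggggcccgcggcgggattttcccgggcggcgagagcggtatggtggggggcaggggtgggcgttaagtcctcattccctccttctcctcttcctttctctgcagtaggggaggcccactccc
In these windows no capitalised match overlaps another motif's. In MRPL52 the first YY1 match begins 98 bases before the start and the second 64 before it. In MRPL51 and MRPS30 it begins 22 and 14 bases after the start.

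The YY1 letters were the most frequent of the 4 among members. They occurred in 20 of 69 member promoters (29%), against 5.08% of the 10921 promoters of protein coding genes tested, 3.03% of all 27305 promoters and 11.1% of 63 cytosolic ribosomal protein promoters. Of the 21 YY1 matches, 15 began between 20 bases before and 50 bases after the start, and 17 lay on the strand of the gene. The ETS letters occurred in 11 member promoters (15.9%), against 8.36% of protein coding genes tested and 4.44% of all promoters. They occurred in 14.3% of cytosolic ribosomal protein promoters, and in 21.4% of MRPL and 7.41% of MRPS promoters. The NRF1 letters occurred in 8 member promoters (11.6%), against 11.1% of protein coding genes tested and 6.28% of all promoters. The E-box letters occurred in 6 member promoters (8.7%), against 9.69% of protein coding genes tested and 7.43% of all promoters. Among cytosolic ribosomal protein promoters the shares were 9.52% for the NRF1 letters and 4.76% for the E-box letters. The YY1 letters were found in 9 of 31 members called higher and in 10 of 36 other tested members. The NRF1 letters were found in 0 of the 31 members called higher and in 8 of the other 36, a split picked out after its values were seen. A match describes letters in a window and shows no binding.

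Among large subunit genes, 24 of 47 tested rose (51.1%, against 34.5% of all genes), 2 fell (4.26%, against 31.5%) and 21 were not called. The median log2 fold change of all 47 was 0.30. The rises ran from 0.21 to 1.03 on the log2 scale, and the members not called from -0.41 to 0.68. The strongest rise belonged to MRPL48, a protein of the central protuberance with no bacterial counterpart. MRPL48 (ENSG00000175581) lies on the plus strand of chromosome 11 at 73787316 to 73865133 in hg38. Its levels were 18.7 and 23.4 CPM in EV against 10.6 and 10.1 CPM in WFI. The EV samples were the higher ones and lay apart from the WFI samples, with a log2 fold change of 1.03 (SE 0.14) and an edgeR adjusted p of 7.83e-05. MRPL11, which sits at the base of the stalk where translation factors dock, was at 84.3 and 82.1 CPM in EV against 40.3 and 45.3 CPM in WFI. Its groups did not overlap, and the log2 fold change was 0.96 (SE 0.07, edgeR adjusted p 5.8e-07).

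MRPL4 lines the tunnel through which the new protein leaves the ribosome. It was at 74.2 and 75.9 CPM in EV against 38.9 and 41.8 CPM in WFI. Both EV samples were higher, by 0.89 on the log2 scale (SE 0.07, edgeR adjusted p 7.25e-07). MRPL54, a protein with no bacterial counterpart, was at 16.2 and 14 CPM in EV against 8.52 and 8.32 CPM in WFI. The groups lay apart, by 0.84 (SE 0.15, edgeR adjusted p 0.000439). After the length and GC correction these 4 genes were still called higher, at 0.87 for MRPL48, 0.70 for MRPL11, 0.42 for MRPL4 and 0.44 for MRPL54.

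The stalk protein MRPL12, the counterpart of bacterial L7/L12, also rose, with 30.6 and 34.3 CPM in EV against 20 and 18.2 CPM in WFI and no overlap. Its partner at the stalk base, MRPL10, was at 94.1 and 91 CPM in EV against 57.6 and 56.3 CPM in WFI. The log2 fold changes were 0.77 (SE 0.11) and 0.70 (SE 0.06), with edgeR adjusted p of 9.58e-05 and 1.32e-06. MRPL12 overlaps an unnamed gene on its own strand, so its reads may be shared. MRPL10, MRPL11 and MRPL12 were all called higher, and were also called higher after the correction. MRPL10 and MRPL12 were singled out after their values were seen.

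The most abundant large subunit genes per length were MRPL37, MRPL43 and MRPL20. MRPL37, found only in mitochondrial ribosomes, averaged 199 TPM over the 4 samples and had 171 and 176 CPM in EV against 100 and 107 CPM in WFI. Both EV samples were higher, by 0.74 (SE 0.05, edgeR adjusted p 1.93e-07), and it was still called higher after the correction (0.36). MRPL20, a counterpart of a bacterial protein needed early in assembly, averaged 171 TPM and had 69.8 and 59.6 CPM in EV against 49.1 and 49.4 CPM in WFI. The groups lay apart, by 0.39 (SE 0.08, edgeR adjusted p 0.00159), but the correction left 0.08 with an adjusted p of 0.346. MRPL43, which has no bacterial counterpart, also averaged 199 TPM and had 89.3 and 79.5 CPM in EV against 72.2 and 73.8 CPM in WFI. The lower EV sample stood close to the WFI samples, and the log2 fold change was 0.21 (SE 0.07, edgeR adjusted p 0.0174). MRPL43 was not called without EV replicate 1 (adjusted p 0.103), without WFI replicate 1 (0.185) and without WFI replicate 2 (0.111), and after the correction the direction turned (-0.19, adjusted p 0.0176).

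The other large subunit genes called higher were MRPL3, MRPL9, MRPL13, MRPL18, MRPL21, MRPL22, MRPL24, MRPL28, MRPL32, MRPL40, MRPL41, MRPL49, MRPL51, MRPL52 and MRPL55. MRPL32 is known as the protein that the m-AAA protease must cut before it can join the large subunit. Its levels were 41.3 and 34.4 CPM in EV against 29.5 and 26 CPM in WFI. The groups did not overlap, the log2 fold change was 0.45 (SE 0.11, edgeR adjusted p 0.00461), and the call was lost without WFI replicate 2 (0.0619). MRPL9 lost its call without WFI replicate 1 (adjusted p 0.119). MRPL28 lost its call without WFI replicate 1 (0.0882) and without WFI replicate 2 (0.196). With the correction MRPL9, MRPL20, MRPL24 and MRPL32 were not called, and MRPL28, MRPL41 and MRPL43 were called lower.

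Only MRPL14 and MRPL44 fell among the large subunit genes tested. MRPL14 faces the small subunit and is the docking site of the assembly factor MALSU1. It lies on the minus strand of chromosome 6 at 44113454 to 44127457, and its levels were 26 and 21.8 CPM in EV against 32 and 35.9 CPM in WFI. Both EV samples were below both WFI samples, with a log2 fold change of -0.51 (SE 0.11, edgeR adjusted p 0.00233), and the corrected value was -0.92. MRPL44, whose protein carries a ribonuclease III fold, was at 24 and 20.1 CPM in EV against 26.7 and 27.2 CPM in WFI. The EV samples were lower, by a log2 fold change of -0.29 (SE 0.11, edgeR adjusted p 0.0418). The call was lost without EV replicate 2 (adjusted p 0.134), without WFI replicate 1 (0.094) and without WFI replicate 2 (0.125), and with DESeq2 (0.136).

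Among the small subunit genes, 10 of 28 tested rose (35.7%), 3 fell (10.7%) and 15 were not called, with a median log2 fold change of 0.19. The share that rose was near that of all genes tested (34.5%), and the share that fell was below it (31.5%). Fewer small subunit genes rose without WFI replicate 1, a fit in which fewer of all genes were also called higher. The largest fold change of the family belonged to MRPS5, a counterpart of bacterial S5 near the entry of the message channel. MRPS5 (ENSG00000144029) lies on the minus strand of chromosome 2 at 95087207 to 95149434 in hg38. Its levels were 5.22 and 4.6 CPM in EV (95 and 89 counts) against 14 and 13.9 CPM in WFI (289 and 291 counts). The EV samples were far below the WFI samples, with a log2 fold change of -1.51 (SE 0.16, edgeR adjusted p 1.2e-05). The corrected value was -1.81, also called lower. MRPS5 overlaps ZNF514 on its own strand, so its reads may be shared.

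MRPS30, once named as a programmed cell death protein, sits in the large subunit of the human mitochondrial ribosome despite its name. It lies on the plus strand of chromosome 5 at 44808925 to 44820428, and was at 32.3 and 30 CPM in EV against 52.7 and 56 CPM in WFI. The groups were well apart, with a log2 fold change of -0.80 (SE 0.08, edgeR adjusted p 7.47e-06) and -0.93 after the correction. MRPS14, a counterpart of bacterial S14, was at 13.5 and 14.6 CPM in EV against 17.8 and 18.3 CPM in WFI. Both EV samples were lower, by a log2 fold change of -0.36 (SE 0.12, edgeR adjusted p 0.0218). MRPS14 was not called without WFI replicate 1 (adjusted p 0.0885), without WFI replicate 2 (0.119), with DESeq2 (0.112) and after the correction (0.132).

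Of the small subunit genes that rose, MRPS11 encodes a platform protein with a bacterial counterpart. It was at 36.7 and 35.8 CPM in EV against 21.5 and 21.6 CPM in WFI. The groups lay apart, by 0.75 (SE 0.09, edgeR adjusted p 3.55e-05), and by 0.78 after the correction. MRPS26, with no bacterial counterpart, was at 56.7 and 55.9 CPM in EV against 35.6 and 34.6 CPM in WFI. Both EV samples were higher, by 0.68 (SE 0.07, edgeR adjusted p 1.26e-05), and by 0.20 after the correction (adjusted p 0.0384).

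MRPS12, a protein of the decoding centre, was at 42.8 and 37.4 CPM in EV against 25.8 and 24.5 CPM in WFI. Its groups did not overlap, and it rose by 0.67 (SE 0.10, edgeR adjusted p 0.000127), a call lost after the correction (0.0957). MRPS24, which lines the message entry and is a counterpart of bacterial S3, was at 3.02 and 5.27 CPM in EV (55 and 102 counts) against 2.57 and 2.06 CPM in WFI (53 and 43 counts). The first EV sample stood near the WFI samples, and the log2 fold change was 0.84 (SE 0.34, edgeR adjusted p 0.0465). The call was lost without EV replicate 2 (0.315), without WFI replicate 1 (0.054), without WFI replicate 2 (0.187), with DESeq2 (0.0884) and after the correction (0.253). MRPS24 also shares its strand and span with the readthrough gene URGCP-MRPS24, so its reads may be split.

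The most abundant small subunit genes per length were MRPS34, MRPS7 and MRPS16. MRPS34, a mitochondria-specific protein, averaged 143 TPM and had 81.6 and 86 CPM in EV against 53.9 and 51.9 CPM in WFI. It rose by 0.66 (SE 0.06, edgeR adjusted p 3.86e-06) with no overlap, and by 0.18 after the correction (0.0236). MRPS7, a counterpart of bacterial S7 in the head of the subunit, averaged 117 TPM and had 95.1 and 90.2 CPM in EV against 62.7 and 59.5 CPM in WFI. Both EV samples were higher, by 0.60 (SE 0.06, edgeR adjusted p 6.52e-06). MRPS16, a counterpart of bacterial S16, averaged 107 TPM and had 121 and 130 CPM in EV against 132 and 127 CPM in WFI. Its groups overlapped, at a log2 fold change of -0.05 (SE 0.05, edgeR adjusted p 0.448), and it overlaps DNAJC9 on its strand.

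The remaining small subunit genes called higher were MRPS15, MRPS18A, MRPS23 and MRPS35. MRPS15 lost its call without WFI replicate 1 (adjusted p 0.0755), as did MRPS35 (0.0681). MRPS18A, which sits in the large subunit, was at 13.7 and 16.2 CPM in EV against 8.57 and 11.3 CPM in WFI. The groups did not overlap, and the log2 fold change was 0.59 (SE 0.17, edgeR adjusted p 0.00935), a call lost without EV replicate 2 (0.0599), without WFI replicate 1 (0.164) and after the correction (0.442). MRPS15 and MRPS24 were not called after the correction either. MRPS36, called small subunit by name but known as a part of the 2-oxoglutarate dehydrogenase complex, was at 18.4 and 12.3 CPM in EV against 13.1 and 13.9 CPM in WFI. Its groups overlapped and it was not called (0.18, SE 0.18, edgeR adjusted p 0.39), but it was called higher without EV replicate 2 (0.43, adjusted p 0.013).

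**Figure D2:**
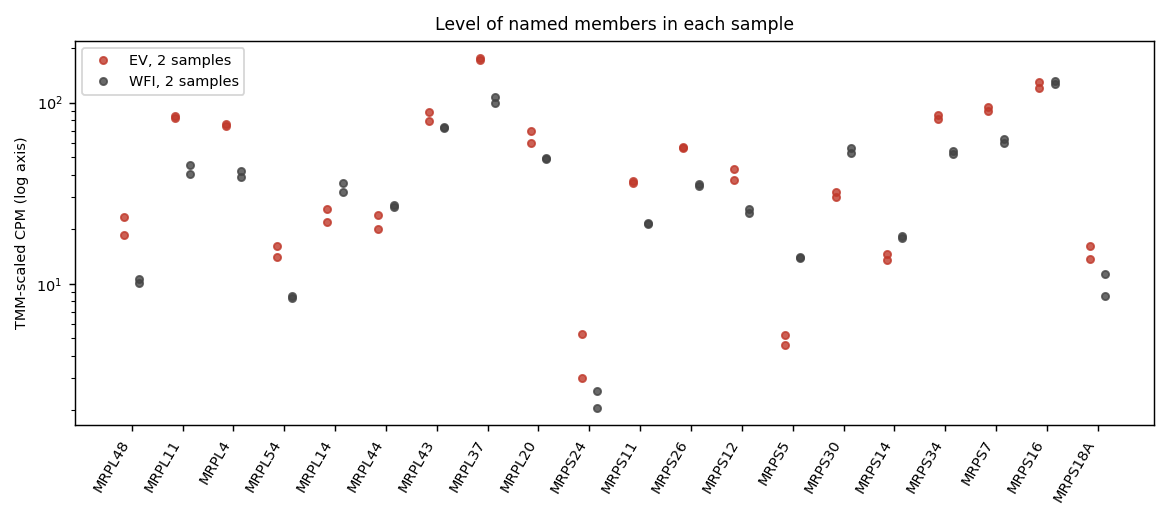
CPM (log axis) in each sample for the tested members named in full, with the 2 EV samples left of the 2 WFI samples for each gene. The EV points of MRPS5 and MRPS30 lie below their WFI points, those of MRPL48 and MRPL11 lie above, and those of MRPS16 overlap.

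The members were also grouped by their place in the ribosome structure. Over all genes tested, 34.5% were called higher and 31.5% lower. In the large subunit, 25 of 49 tested proteins' genes rose (51%) and 3 fell (6.12%), with a median of 0.30. Of its 29 genes with a bacterial counterpart, 15 rose and 1 fell (median 0.39), and of the 20 without one, 10 rose and 2 fell (median 0.29). After the correction these were 12 higher and 7 lower (median 0.10) with a counterpart, and 7 higher and 6 lower (median 0.10) without one. In the small subunit, 9 of 25 rose (36%) and 2 fell (8%), with a median of 0.19. Of its 16 genes with a bacterial counterpart, 5 rose and 2 fell (median 0.17), and of the 9 without one, 4 rose and none fell (median 0.24). After the correction these were 2 higher and 2 lower (median 0.07) with a counterpart, and 4 higher and 0 lower (median 0.11) without one. With the correction, 34.4% of all genes tested were called higher and 29.4% lower. The large subunit by name then had 19 higher (40.4%) and 12 lower (25.5%), with a median of 0.10. The small subunit by name had 6 higher (21.4%) and 3 lower (10.7%), with a median of 0.12. Whether the subunits differed was not tested.

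Too few counts were found in 3 members for a test. MRPL23 had 6 and 4 counts in EV against 4 and 0 in WFI. MRPS18B, on chromosome 6 at 30617709 to 30626395 in the MHC region, had 0 counts in both EV samples against 1 and 2 in WFI. MRPL53 had 0 counts in all 4 samples and overlaps CCDC142 on its strand. A count of 0 allows up to 3 counts, which corresponds to 0.165 and 0.155 CPM in EV against 0.145 and 0.143 CPM in WFI, counting error only. Pseudogenes of 36 members were also in the table, and among tested members their counts reached at most 8.15% of the member's own (MRPS31). The pseudogene of MRPL53 had 6 counts, more than the gene itself. Of the tested members, 12 overlap another protein coding gene on their own strand.

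Some members start close to a neighbour. With starts within 1000 bases and no overlap of the genes there, 15 divergently transcribed pairs of a member and another protein coding gene had both genes tested. In 4 pairs both were called, 2 in the same direction and 2 in opposite directions, where 66% of all genes tested were called. Divergent pairs that overlap at their starts, such as MRPL43 (higher, 0.21) and TWNK (lower, -0.27), were not counted. MRPL18 rose with TCP1, a subunit of the cytosolic chaperonin (log2 fold changes 0.67 and 1.12), and MRPL21 rose (0.59) while IGHMBP2, a helicase, fell (-0.56). By their GENCODE places, the starts of MRPS11 and MRPL46 are 34 bases apart. Their promoter windows were set on RefSeq starts, which differ from the GENCODE ones, and share 181 of 300 bases. MRPS11 rose, while MRPL46 was at 4.23 and 3.56 CPM in EV against 4.89 and 5.45 CPM in WFI, with no call (-0.41, SE 0.24, edgeR adjusted p 0.162). After the correction MRPL46 was called lower (-0.77, adjusted p 0.0155). MRPL46 overlaps an unnamed protein coding gene on its own strand, so its reads may be shared.

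Nearly all cytosolic ribosomal protein genes rose. Of 78 tested, 74 rose (94.9%, against 34.5% of all genes), 1 fell (1.28%, against 31.5%) and 3 were not called. The median log2 fold change was 1.09, with quartiles of 0.97 and 1.21. By subunit, 46 of 47 large subunit genes rose (median 1.10) and 28 of 31 small subunit genes (median 1.08). Their summed level was 76313 and 73778 CPM in EV against 33130 and 34045 CPM in WFI, a ratio of 2.23. The ratio of summed cytosolic to summed mitochondrial levels was 23.4 and 23.1 in EV against 13 and 12.9 in WFI, with no overlap. RPLP0, the scaffold of the cytosolic stalk, was at 4059 and 4044 CPM in EV against 1401 and 1443 CPM in WFI, a log2 fold change of 1.51 (SE 0.02, edgeR adjusted p 1.52e-12). RPLP1, a stalk protein it carries, was at 1501 and 1490 CPM in EV against 494 and 493 CPM in WFI, a change of 1.60 (SE 0.03, edgeR adjusted p 2.36e-12). RPS2, of the small subunit, was at 3615 and 3562 CPM in EV against 1248 and 1296 CPM in WFI (edgeR adjusted p 3.01e-12).

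RPS18, the 1 cytosolic gene called lower, rested on a single library. It had 0.55 and 0.31 CPM in EV against 16.1 and 0.191 CPM in WFI, and lies on chromosome 6. The log2 fold change was -4.23 (SE 1.32, edgeR adjusted p 0.0153), and it was 1.11 with an adjusted p of 0.66 without WFI replicate 1. The call was also lost without EV replicate 1 (0.139) and without EV replicate 2 (0.136). After the correction the cytosolic genes had 74 higher and 1 lower, with a median of 0.85, against 34.4% and 29.4% of all genes.

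**Figure D3:**
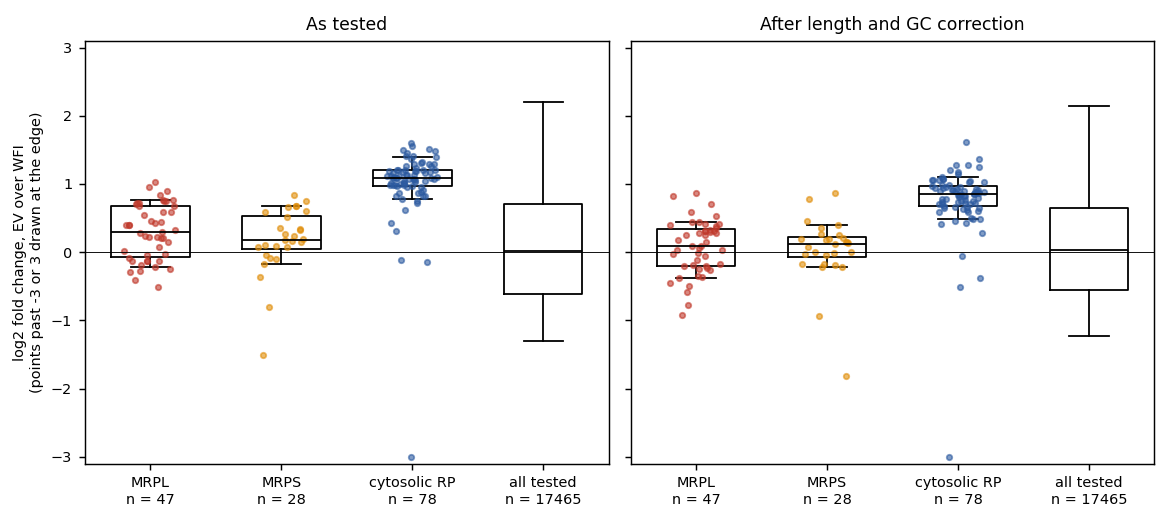
Log2 fold change, EV over WFI, of MRPL, MRPS and cytosolic ribosomal protein genes (each point a gene) and of all genes tested, as tested and after the length and GC correction; boxes mark the median and quartiles, whiskers the 10th and 90th percentiles. Medians are 0.30 for MRPL, 0.19 for MRPS, 1.09 for cytosolic genes and 0.02 for all genes, and 0.10, 0.12, 0.85 and 0.03 after the correction.

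Across protein coding genes, shorter transcripts had higher fold changes. Over 13554 of them the Spearman correlation of log2 fold change with transcript length was -0.35, and over the 75 members it was -0.14, while over the 78 cytosolic genes it was 0.02. The median transcript length was 1286 bases in the members, 799 bases in the cytosolic genes and 2912 bases in protein coding genes. After the correction the correlation was -0.07 over protein coding genes, 0.17 over the members and 0.28 over the cytosolic genes. These are correlations across genes of the same 4 libraries, given as descriptions. Of the 75 members, 22 changed call with the correction, among them 8 that were called higher and then not called, 3 that turned from higher to lower and 8 that were not called and then called lower. Of the 34 members called higher, 23 kept that call.

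**Figure D4:**
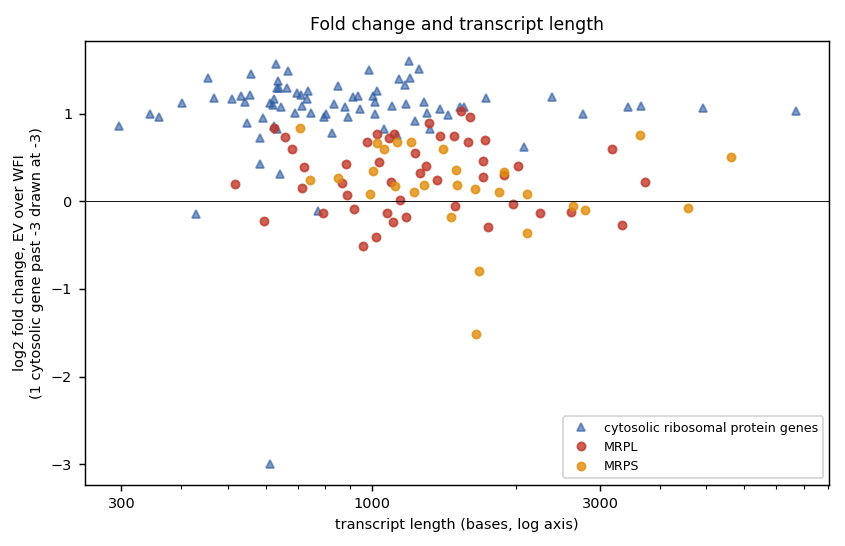
Log2 fold change, EV over WFI, against transcript length in bases (log axis) for MRPL, MRPS and cytosolic ribosomal protein genes, each point a gene. The quartiles of the cytosolic genes are 0.97 and 1.21, RPS18 is drawn at the lower edge, and MRPS5 and MRPS30 are the lowest of the members.

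Mitoribosome proteins with other symbols moved in both directions. Of 5 tested, 3 rose (60%, against 34.5% of all genes) and 2 fell (40%, against 31.5%), with a median of 0.46. After the correction 2 were higher and 1 lower, with a median of 0.13, against 34.4% and 29.4% of all genes. DAP3, a GTP-binding small subunit protein, was at 159 and 164 CPM in EV against 93.3 and 96 CPM in WFI. It rose by 0.77 (SE 0.05, edgeR adjusted p 9.96e-08) with no overlap. GADD45GIP1, at the exit of the tunnel, was at 98 and 107 CPM in EV against 61.4 and 58.5 CPM in WFI, a change of 0.77 (SE 0.06, edgeR adjusted p 1.15e-06). AURKAIP1, a small subunit protein, rose by 0.46 (SE 0.05, edgeR adjusted p 1.83e-05), and the corrected value was -0.01 with an adjusted p of 0.878. PTCD3, a small subunit protein at the message entry, fell (-0.37, SE 0.08, edgeR adjusted p 0.00218), and the corrected value was 0.13. CHCHD1, also of the small subunit, fell (-0.25, SE 0.09, edgeR adjusted p 0.0322), a call lost without WFI replicate 1 (0.189), without WFI replicate 2 (0.0788) and with DESeq2 (0.139).

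Assembly factors fell more often than they rose. Of 27 tested genes for assembly and rRNA modification, 6 rose (22.2%) and 11 fell (40.7%), with a median of -0.45. The shares over all genes tested were 34.5% higher and 31.5% lower. After the correction 4 assembly genes were higher and 11 lower, with a median of -0.15, against 34.4% and 29.4% of all genes. The median was -0.12 with the filter of 50 counts, which leaves out the low-count genes MRM1 and MRM2. DDX28, an RNA helicase of large subunit assembly, was at 3.9 and 4.13 CPM in EV against 13 and 10.8 CPM in WFI. The groups were far apart, at -1.56 (SE 0.19, edgeR adjusted p 2.73e-05). MTG2, a GTPase of large subunit assembly, was at 36.8 and 41.2 CPM in EV against 67.2 and 63.3 CPM in WFI, a change of -0.74 (SE 0.08, edgeR adjusted p 1.02e-05). GTPBP10, another such GTPase, fell (-0.99, SE 0.10, edgeR adjusted p 6.62e-06), but the corrected value was -0.08 with an adjusted p of 0.539. ERAL1, the chaperone of the small subunit rRNA, was at 83.2 and 82.9 CPM in EV against 48.2 and 49.3 CPM in WFI, a rise of 0.77 (SE 0.06, edgeR adjusted p 9.07e-07). MPV17L2, an inner membrane protein of assembly, rose by 1.17 (SE 0.12, edgeR adjusted p 7.83e-06), and AFG3L2, a subunit of the m-AAA protease, by 0.42 (SE 0.06, edgeR adjusted p 0.000107).

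**Figure D5:**
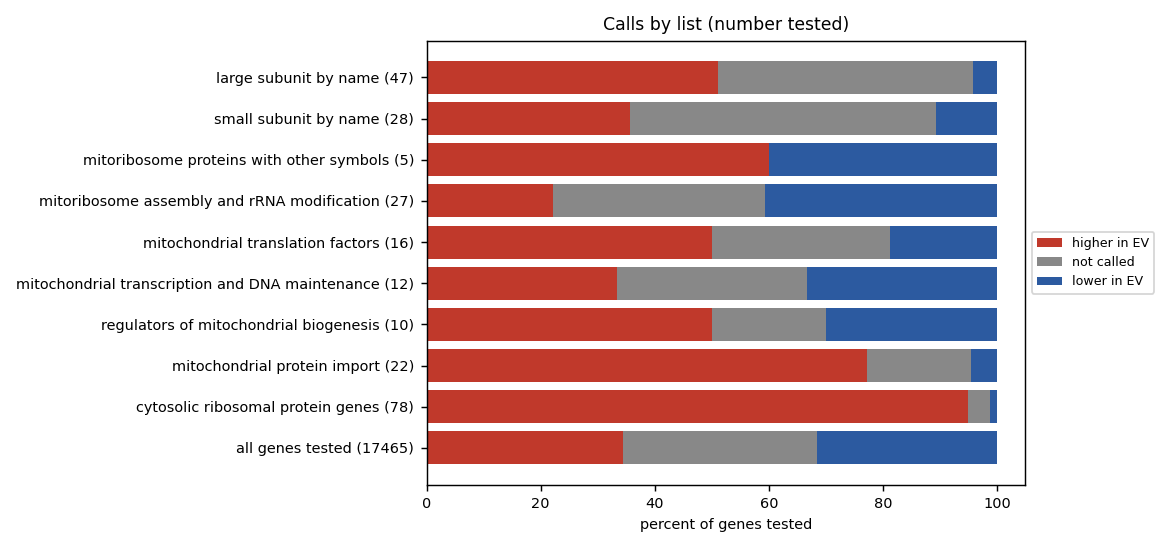
Percent of the tested genes of each list called higher in EV, not called or lower in EV by edgeR, with the number tested in brackets. Of the cytosolic ribosomal protein genes 94.9% were higher, of the import genes 77.3%, and of the assembly genes 22.2%, against 34.5% of all genes.

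Translation factors of mitochondria held 8 genes that rose (50%) and 3 that fell (18.8%) of 16 tested, with a median of 0.23. The shares over all genes tested were 34.5% and 31.5%. The median was 0.15 without a count filter and 0.36 with the filter of 50 counts, which leaves out the low-count gene TSFM. TUFM, the elongation factor that brings aminoacyl-tRNA, was at 295 and 317 CPM in EV against 181 and 183 CPM in WFI, a rise of 0.75 (SE 0.04, edgeR adjusted p 6.2e-08). MTRFR, a ribosome rescue factor, rose by 0.52 (SE 0.07, edgeR adjusted p 8.81e-05), and LRPPRC, which stabilises mitochondrial messages, by 0.35 (SE 0.06, edgeR adjusted p 0.000216). GFM1, the translocation factor, was at 32.4 and 34.7 CPM in EV against 49.9 and 49 CPM in WFI, a change of -0.56 (SE 0.08, edgeR adjusted p 0.000108). OXA1L, which inserts the new proteins into the inner membrane, fell (-0.21, SE 0.06, edgeR adjusted p 0.00703). MTFMT, which formylates the initiator tRNA, fell (-0.40, SE 0.16, edgeR adjusted p 0.0428), a call lost without EV replicate 1 (0.0594), without WFI replicate 1 (0.0767), without WFI replicate 2 (0.296), with DESeq2 (0.167) and after the correction (0.101). Fewer of the 16 rose without WFI replicate 1, a fit in which fewer of all genes were also called higher. After the correction 9 were higher (56.2%) and 2 lower (12.5%), with a median of 0.30, against 34.4% and 29.4% of all genes.

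Genes of mitochondrial transcription and DNA maintenance were called at about the shares of all genes tested (34.5% higher and 31.5% lower), with 4 of 12 rising and 4 falling. Their median was 0.03, and -0.08 after the correction, -0.05 without a count filter and -0.06 without EV replicate 1. TFB2M, a factor needed to open mitochondrial promoters, was at 60.6 and 68.7 CPM in EV against 21.8 and 22.9 CPM in WFI, a rise of 1.53 (SE 0.09, edgeR adjusted p 7.45e-08). POLG2, the accessory subunit of the mitochondrial DNA polymerase, rose by 1.33 (SE 0.09, edgeR adjusted p 2.76e-07), and TFAM, which packs mitochondrial DNA, by 0.55 (SE 0.05, edgeR adjusted p 3.21e-06). TEFM, the elongation factor of the mitochondrial RNA polymerase, was at 2.97 and 3.82 CPM in EV against 7.36 and 7.36 CPM in WFI, a change of -1.11 (SE 0.23, edgeR adjusted p 0.00133). MTERF1 fell (-1.08, SE 0.17, edgeR adjusted p 0.000176), and POLG, the catalytic subunit of the polymerase, fell (-0.28, SE 0.05, edgeR adjusted p 0.000817).

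Of 10 regulators of mitochondrial biogenesis, 5 rose (50%, against 34.5% of all genes) and 3 fell (30%, against 31.5%), with a median of 0.20. The correction gave 7 higher and 1 lower with a median of 0.41, against 34.4% and 29.4% of all genes. With the filter of 50 counts, which leaves out PPARGC1A, the median was -0.10. MYC, which binds E-boxes, was at 167 and 170 CPM in EV against 66.2 and 60.1 CPM in WFI, a rise of 1.42 (SE 0.06, edgeR adjusted p 3.12e-09). YY1, whose letters were frequent in the members' promoters, was at 270 and 269 CPM in EV against 186 and 181 CPM in WFI, a rise of 0.55 (SE 0.04, edgeR adjusted p 2.42e-07). GABPB1, the partner subunit of GABPA, rose by 1.33 (SE 0.10, edgeR adjusted p 4.01e-07). GABPA itself was at 34.6 and 32 CPM in EV against 38.6 and 41.1 CPM in WFI (-0.26, SE 0.09, edgeR adjusted p 0.0229). Its call was lost without EV replicate 2 (0.0536), without WFI replicate 2 (0.152) and with DESeq2 (0.094), and the corrected value was 0.40 with an adjusted p of 0.00197. The coactivators PPRC1 (-0.67, SE 0.05, edgeR adjusted p 4.31e-07) and PPARGC1B (-1.14, SE 0.26, edgeR adjusted p 0.00253) fell, the second not called after the correction (0.0847). Their relative PPARGC1A rose at a low level, with 0.66 and 2.53 CPM in EV (12 and 49 counts) against 0.291 and 0.0478 CPM in WFI (6 and 1 counts). The log2 fold change was 3.20 (SE 0.86, edgeR adjusted p 0.00695), and without EV replicate 2 it was 1.91 and not called (0.162). NRF1, the factor itself, was at 18.6 and 13.7 CPM in EV against 17.9 and 17.8 CPM in WFI and was not called (-0.15), but was called lower without EV replicate 1 (-0.39, adjusted p 0.0203). PPARGC1A and NRF1 were singled out after their values were seen.

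Genes of mitochondrial protein import rose in 17 of 22 tested (77.3%), and 1 fell (4.55%), with a median of 0.40. The shares over all genes tested were 34.5% and 31.5%. TOMM40, the pore of the outer membrane, was at 129 and 143 CPM in EV against 65.7 and 67.8 CPM in WFI, a rise of 1.02 (SE 0.06, edgeR adjusted p 8.18e-08). TIMM44, which tethers the import motor, rose by 1.02 (SE 0.07, edgeR adjusted p 3.2e-07), and TIMM23, the channel of the inner membrane, by 0.65 (SE 0.06, edgeR adjusted p 2.03e-06). PMPCA, a subunit of the protease that removes the import signal, was at 44 and 44.1 CPM in EV against 65.7 and 69.2 CPM in WFI, a change of -0.61 (SE 0.07, edgeR adjusted p 1.45e-05). These lists hold more genes than the mitochondrial ribosome, and no difference between lists was tested.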

How the data were processed

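Per the labels' protocols, total RNA was made into libraries with a directional kit. The authors deposited raw counts per gene, whole numbers with no normalization, for 4 samples. The submitters' processing notes name hg38 as the build. Aligner, counter and strand setting were not given in the sources used here. Every count column was mapped to a sample by its name.

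Counts were tested with edgeR 4.0.16 in R 4.3.3 (TMM, filterByExpr, quasi-likelihood, group only, Benjamini-Hochberg over all 17465 genes, adjusted p below 0.05). Standard errors are the log2 fold change over the square root of F. Gene types, places and transcript lengths came from GENCODE release 29, and 17073 of the tested genes had a length. TPM were computed from counts and transcript length. Alternatives were DESeq2 1.42.0, other scalings and filters, a replicate block, each sample left out, a minimum log2 fold change of 1, and offsets fitted with mgcv 1.9.3 on transcript length and GC content. Between replicates, the chi-square of the counts divided by its degrees of freedom was 4.58 in EV and 2.20 in WFI, above counting noise.

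Named genes were the 4 called members of largest change in each direction and subunit without overlap, the 3 most abundant per subunit, members below the filter, MRPS30, MRPS18A, MRPS18B, and the 3 of smallest adjusted p in each direction of each related list; other genes given with values, such as MRPL32, MRPL46, MRPS36, TCP1 and IGHMBP2, were picked after their values were seen. The members and lists were chosen with earlier results of these data known.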

Additional observations from a re-analysis of the deposited data

How the results depend on the processing

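Of 626 values for the 57 tested genes named in full under the alternatives, 573 kept their side of the threshold, 48 lost the call and 5 turned the sign of a called value. Those 5 were MRPL43 (-0.19), AURKAIP1 (-0.01), PTCD3 (0.13) and GABPA (0.40) with the length and GC correction, and RPS18 without WFI replicate 1 (values from -5.25 to 1.11 over the left-out samples). MRPS16, not called in any of these fits, was at 0.01 with upper quartile scaling, against -0.05. Of the 75 members, 45 kept their call under the 11 alternatives other than the minimum log2 fold change, under which MRPL48 and MRPS5 alone stayed called. Of 350 counts and medians of gene lists, 267 stayed, 82 moved and 1 reversed. A median counts as reversed where both values exceed the spread between sample pairs, so the transcription median, which lay near 0 with either sign, is not counted. A filter also changes which genes a list holds, and other causes of these shifts were not tested.

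The length and GC correction gave 15 members lower and a median of 0.11, with 12 lower and 0.10 in the large subunit, 6 higher in the small subunit, 0.85 for cytosolic genes, 1 lower and 0.13 for mitoribosome proteins with other symbols, -0.15 for assembly, -0.08 for transcription, 1 lower and 0.41 for regulators, and 0.34 for import. A minimum log2 fold change of 1 left 1 member higher (17.5% of all genes) and 1 lower (13.3%), with 1 and 0 in the large subunit, 0 and 1 in the small, 0 and 0 for other symbols and for translation factors, 1 and 2 for assembly, 2 and 2 for transcription, 3 and 1 for regulators, and 2 and 0 for import. DESeq2 called 3 members lower, 1 in the large subunit, 0 cytosolic genes and 1 of other symbols. Large subunit genes called lower were 1 with RLE scaling, upper quartile scaling and the filter of 50 counts. Upper quartile scaling gave medians of 0.30 for members, 1.15 for cytosolic genes, 0.51 and 1 lower for other symbols, -0.39 for assembly and 0.45 for import. Without a count filter 8 members were lower, 5 of them large subunit, with medians of 0.16 for members, 0.10 for the small subunit, 1.01 for cytosolic genes, 0.38 for other symbols, -0.52 for assembly, 0.15 for translation factors, -0.05 for transcription and 0.32 for import. The filter of 50 counts gave 0 cytosolic and 1 other-symbol gene lower, with medians of 1.15 for cytosolic genes, -0.12 for assembly, 0.36 for translation factors, -0.10 for regulators (reversed) and 0.46 for import. This filter left out PPARGC1A of the regulators, MRM1 and MRM2 of assembly and TSFM of the translation factors. The medians of these lists therefore cover fewer genes than in the main fit.

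On leaving out each sample, members called higher ran from 27 to 36, lower from 3 to 5, and their median from 0.17 to 0.31. For the large subunit the lower calls ran from 1 to 2 and the median from 0.21 to 0.37, and for the small subunit the higher calls from 6 to 11. Cytosolic genes lower ran from 0 to 1. For other symbols, lower calls ran from 1 to 2 and the median from 0.40 to 0.48. The median ran from -0.51 to -0.36 for assembly, from 0.17 to 0.34 for translation factors (5 to 8 higher), from -0.06 to 0.05 for transcription and from 0.14 to 0.29 for regulators. Same-numbered samples showed no shared deviation across genes (correlation 0.0159). This rests on a single difference between samples in each group and cannot tell whether the samples were paired, which the labels do not say. With a replicate block 11530 genes were called, against 11528 without it, and of the members MRPL35 and MRPS9 were then called higher, giving 36.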
